A study of Nicotiana tabacum and Solanum tuberosum subsp. andigenum and Nicotiana sylvestris with 28 samples.

Results

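Leaf RNA of potato (Solanum tuberosum subsp. andigena) moved from long days (LD) to 1 short day (SD) was compared with leaf RNA of potato kept in LD on 3 arrays, out of the 28 arrays of the series. All 3 arrays that the labels assign to this transfer were used. Of the 20862 spots with a value on any array of the series, 16224 had a value on each of these 3 and were kept. They represent 8729 cDNA clones, 7495 of them by 2 spots and 1234 by 1 spot.

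The series compares day lengths in potato and in Nicotiana on potato cDNA arrays with 2 colours. The SD plants had 55 days of LD followed by 1 SD, and the LD plants had 56 days of LD, so both were of the same age at harvest. The light period of SD lasted 8 h, at 160 μmol of photons per second and square metre, that of LD lasted 16 h at 80 μmol, and the temperature was 22 °C in both. The daily sum of light was therefore 4.61 mol per square metre in SD and 4.61 mol in LD, while irradiance and day length changed together. All plants were harvested 14 h after the lights came on, which by the methods was 6 h after dusk for SD plants and 2 h before dusk for LD plants. The labels put the harvest 8 h after dusk in SD and just before dusk in LD. In either account dark leaves of SD plants were set against lit leaves of LD plants, and day length, irradiance and light at harvest cannot be told apart. The labels name leaves as the tissue, and the methods name leaves with petioles. The replicates were independent biological samples according to the methods, and how many plants made up a sample is not given in the sources used here. The methods give the subspecies as one that forms tubers in SD and does not in LD.

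Day length is perceived in the leaf, where the photoreceptor phytochrome B and the circadian clock act on CONSTANS-like regulators, and in potato of this subspecies SD lead to a mobile signal that starts tuber formation in the stolons. A BEL1-like transcription factor, BEL5, whose mRNA moves from leaf to stolon, takes part in that response. A leaf in darkness also stops photosynthesis and draws on the starch it stored in the light, so that genes of carbon metabolism commonly differ between lit and dark leaves.

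Values are mean log2 LD/SD ratios over the 3 replicates. A negative ratio stands for RNA that was higher in SD plants, and a positive ratio for RNA that was lower in SD plants. The deposit does not state which way its ratios run. Cy3 (LD plants on all 3 arrays) over Cy5 (SD plants) was taken as the direction, since it gives STUGE51, GBSS and F3H the signs known from the study. PR1B was used as well. The paper gives it as higher in wild type than in antisense PHYB plants and as unaffected by photoperiod, so it says little on the direction. For all of these genes the direction is thus no independent result. LD plants were in the same channel on each array, so dye and day length cannot be told apart from these arrays alone. A clone "passed" where limma gave a p up to 0.05 and a Benjamini-Hochberg adjusted p up to 0.1, and was "called" when its mean ratio was also at least 1 in size, that is 2-fold.

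Each array gave values for 17660 to 17835 spots, with a median ratio of 0. The 2 spots of a clone correlated at 0.891 to 0.929, with a median absolute difference of 0.112 to 0.133. Between replicates the clone ratios correlated at 0.754 for replicates 1 and 2, 0.624 for replicates 1 and 3 and 0.817 for replicates 2 and 3, across clones, with median absolute differences of 0.209 to 0.285. The number of arrays limits the precision: the median standard error of a clone's mean ratio was 0.126. Strongly negative values were recorded in coarse steps, with 12 distinct values among 140 spot values between -3 and -2, against 170 distinct values among 230 between 2 and 3.

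After 1 SD, 445 of 8729 clones were called, which is 5.10%. Of these, 166 were higher in SD (1.90%) and 279 were lower in SD (3.20%). The direction was nearly even without the size limit: 1473 clones passed as higher in SD (16.9%) and 1518 as lower in SD (17.4%). All 166 clones higher in SD had the same sign in each replicate, and so had 278 of the 279 clones lower in SD. The exception, the clone with spot 145052, had ratios of -0.12, 1.53 and 2.39.
The sizes of change were alike in both directions, with a median ratio of -1.35 for the clones higher in SD and 1.32 for those lower in SD. At least 4-fold changes were found for 25 clones higher in SD and 44 clones lower in SD, and at least 8-fold changes for 2 clones higher and 7 lower in SD. Replicate 3 gave the largest ratio in size for 113 of the 166 clones higher in SD and for 161 of the 279 lower in SD. Median ratios of the clones higher in SD were -1.21, -1.23 and -1.65 in replicates 1, 2 and 3, and those of the clones lower in SD were 1.25, 1.28 and 1.52.

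**Figure D1:**
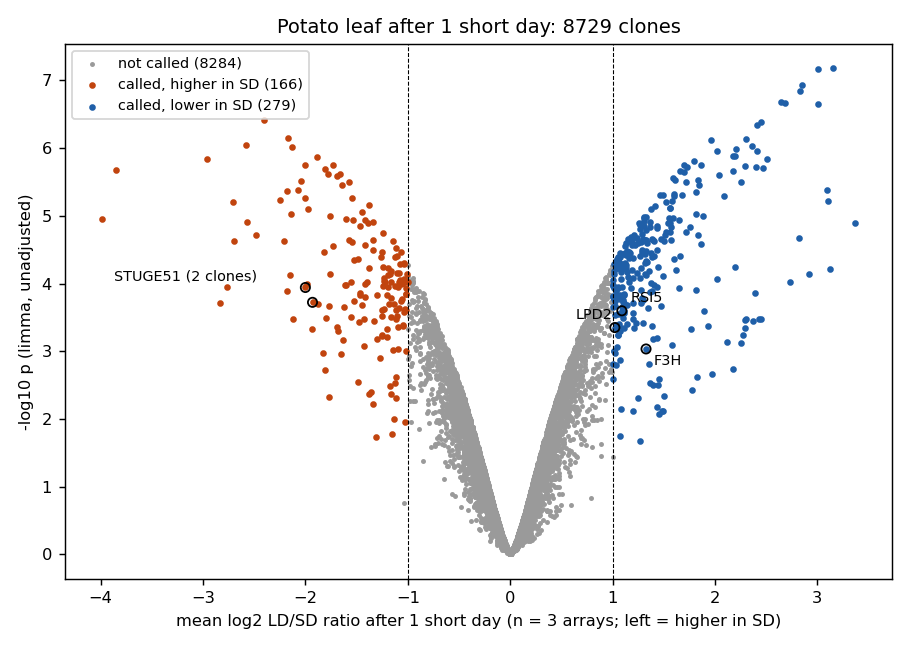
Mean log2 LD/SD ratio after 1 short day (horizontal axis, negative values for RNA higher in SD) against the unadjusted p of limma on a -log10 scale, each point 1 of 8729 clones. The 166 called clones higher in SD lie left of the dashed line at -1 and the 279 called clones lower in SD lie right of the dashed line at 1, with circles around the 5 called clones that have a gene name.

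The clones with the largest changes carry no gene name in the probe annotation. The clone with spot 148140 had ratios of -3.06, -3.84 and -5.06, a mean of -3.98. Next came the clones with spots 135541 (-3.85) and 161777 (-2.96) among those higher in SD. In the other direction the clones with spots 156039, 143677 and 156758 had mean ratios of 3.37, 3.16 and 3.13. Gene names in the annotation cover 140 of the tested clones, from 83 genes, while 602 carry a bare locus number, 70 match several genes and 7917 none. Called clones with a locus number numbered 13 higher in SD and 29 lower in SD.
The locus LOC102591352 was higher in SD, with ratios of -1.41, -1.58 and -2.19, and LOC102577576 likewise with -0.70, -1.81 and -2.43. Lower in SD were both clones of LOC102577928, with means of 2.39 and 2.45, and all 3 clones of LOC102584296, with means of 1.82, 2.30 and 2.31. What these loci encode is not paired with them in the tables used here.
Different clones of a gene were also compared. Among 180 genes with at least 2 tested clones, the median range between the clones of a gene was 0.226. All clones passed in one direction for 44 of these genes, and for 7 genes some clones passed in each direction. Over all clones the quartiles of the mean ratio were -0.24 and 0.24, and 34.3% passed. Clones of different genes were not compared in the same way, so these values do not show that clones of 1 gene agree better.

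Of the 140 clones with a gene symbol, 26 passed as higher in SD, 26 passed as lower in SD and 88 did not pass. This is 37.1%, close to the 34.3% of all clones that passed without the size limit. Called among them were both clones of STUGE51, higher in SD, and 1 clone each of F3H, LPD2 and RSI5, lower in SD. Of the 52 that passed, 12 clones from 11 genes also passed with each replicate left out in turn: STUGE51 with both clones, 16R, TOM20, NDPK1 and XIP1-1-BETA among those higher in SD, and F3H, RSI5, LPD2, TK, IPMK and AMYA1 among those lower in SD. The other 40 lost the call without at least 1 replicate, most often replicate 2. Without replicate 2, 14 of the 52 passed, against 34 without replicate 1 and 38 without replicate 3. Over all 8729 clones, 3380 met the limit on the unadjusted p of limma with all replicates. Without replicate 1, 2 or 3 it was met by 3190, 1995 and 2975 clones. The drop without replicate 2 was thus not confined to the named clones, and a call lost there says little about a single gene. How many of all 8729 clones passed with each replicate left out in turn was not counted, so the 12 clones are a description only.

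**Figure D2:**
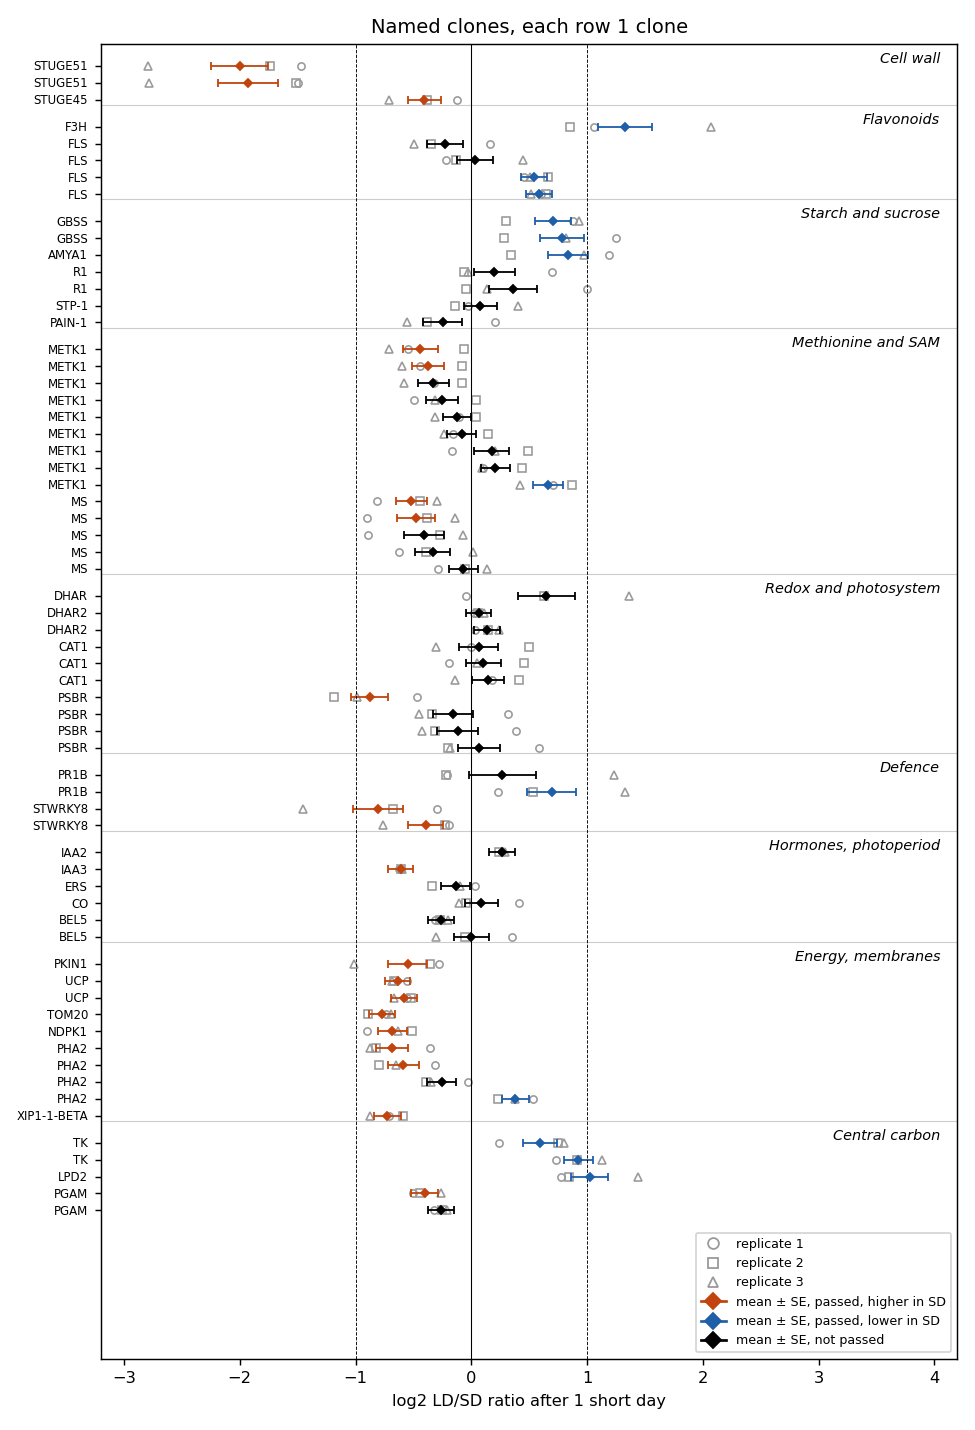
Log2 LD/SD ratios after 1 short day of clones with a gene name, grouped by function, each row 1 clone, with open symbols for the 3 replicates and diamonds with bars for the mean and its standard error. Clones of STUGE51 lie furthest left (means -2.001 and -1.93, higher in SD) and F3H furthest right (mean 1.33, lower in SD). Most other named clones lie within the dashed lines at 2-fold.

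STUGE51, a UDP-glucose 4-epimerase, which interconverts UDP-glucose and UDP-galactose for cell wall polysaccharides, rose most among the named genes. Its clones had ratios of -1.47, -1.74 and -2.79 and of -1.49, -1.51 and -2.79 in replicates 1, 2 and 3. The means of -2.001 (SE 0.25, n = 3) and -1.93 (SE 0.26, n = 3) are 4.003-fold and 3.81-fold changes, with adjusted p of 0.00333 and 0.00428 from limma. Replicate 3 was the largest in size on both clones, and without it the means were -1.61 and -1.50. The clone of the related epimerase STUGE45 had ratios of -0.12, -0.39 and -0.71 and passed with a mean of -0.41. STUGE45 did not pass without replicate 2 (-0.42) or without replicate 3 (-0.25), nor after subtraction of the dye term that the dye-swapped pair of 15-day arrays gave (-0.16), while STUGE51 passed then, at -1.95 and -1.88. The cell wall list holds no tested clone beyond these epimerases. All 3 passed as higher in SD, where 16.9% of all clones did, with a median ratio of -1.93 against 0.00333 over all clones.

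In flavonoid synthesis, F3H and a pair of FLS clones fell in SD. F3H, flavanone 3-hydroxylase, an early enzyme of flavonol and anthocyanin synthesis, had ratios of 1.06, 0.85 and 2.07, a mean of 1.33 (SE 0.23, n = 3, adjusted p = 0.00997 from limma), or 2.51-fold. Replicates 1 and 2 lay below replicate 3, and without replicate 3 the mean was 0.96. FLS, flavonol synthase, has 4 clones, which did not move together. A pair of them fell in SD, with means of 0.59 and 0.54 and a spread over replicates from 0.45 to 0.67, but neither passed without replicate 2 (0.56 and 0.48), and the second, at 0.22, did not pass after the dye term was subtracted. The other FLS clones had means of 0.03 and -0.23 and did not pass. Of the 5 clones in the list, 0 passed as higher in SD (16.9% of all clones), 3 passed as lower in SD (17.4% of all clones) and 2 did not pass, with a median of 0.54.

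In starch and sucrose metabolism, 0 of 7 clones passed as higher in SD, 3 passed as lower in SD and 4 did not pass, with a median ratio of 0.36, where 16.9% of all clones passed as higher and 17.4% as lower. GBSS, granule-bound starch synthase, which makes amylose, fell in SD, as both clones showed. The values were 1.25, 0.28 and 0.82 on one clone and 0.88, 0.30 and 0.93 on the other, with means of 0.78 and 0.70. Replicate 2 was the lowest on both, and without replicate 1 neither clone passed (0.55 and 0.62). AMYA1, an alpha-amylase of starch breakdown, fell in SD with ratios of 1.19, 0.34 and 0.97, a mean of 0.83 (SE 0.18, n = 3, adjusted p = 0.0182 from limma).
R1, glucan water dikinase, which phosphorylates starch and so opens it to breakdown, had clone means of 0.20 and 0.36 and did not pass. Replicate 1 stood above the others there, at 0.70 and 1.00, against -0.07 to 0.14 in replicates 2 and 3. STP-1, a starch phosphorylase (0.08), and PAIN-1, the vacuolar acid invertase (-0.25), did not pass either, though PAIN-1 passed as higher in SD without replicate 1 (-0.47).

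In central carbon metabolism, 2 of 20 clones passed as higher in SD, 5 passed as lower in SD and 13 did not pass, close to the 34.3% of all clones that passed in either direction. The group was put together after the values were seen, so its counts are a description only. LPD2, a dihydrolipoamide dehydrogenase, a subunit of pyruvate dehydrogenase and related complexes, fell in SD with ratios of 0.78, 0.85 and 1.44, a mean of 1.02 (SE 0.16, n = 3, adjusted p = 0.00667 from limma), or 2.03-fold. Both clones of TK, transketolase, of the Calvin cycle and the pentose phosphate pathway, fell in SD with means of 0.93 and 0.60. On the first of these the replicates lay close together, at 0.73, 0.91 and 1.13. The second, at 0.24, 0.75 and 0.80, did not pass without replicate 2 (0.52). PGAM, phosphoglycerate mutase of glycolysis, had clone means of -0.40 and -0.26, of which the larger in size passed as higher in SD, though not without replicate 1 (-0.35) or replicate 2 (-0.38). GAPDH, glyceraldehyde-3-phosphate dehydrogenase, had 8 clones, with 1 passed as higher in SD (-0.34), 1 passed as lower in SD (0.39) and 6 not passed, and neither of those that passed did so after the dye term was subtracted (-0.08 and 0.28). ADH1, alcohol dehydrogenase, had a mean of 0.41 and passed, but did not pass without replicate 1 (0.24), replicate 2 (0.53) or replicate 3 (0.47). Its ratio was -0.30 after the dye term was subtracted, against 0.25 on the same spots without subtraction.

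Genes of mitochondria and membranes form another group put together after the values were seen, so that its counts follow from the choice of members. In it, 7 of 13 clones passed as higher in SD, 1 passed as lower in SD and 5 did not pass, where 16.9% of all clones passed as higher and 17.4% as lower. TOM20, a receptor of the mitochondrial protein import complex, had ratios of -0.74, -0.89 and -0.69, a mean of -0.77 (SE 0.11, n = 3, adjusted p = 0.00566 from limma). XIP1-1-BETA, an aquaporin of the X intrinsic protein family, had -0.71, -0.59 and -0.88, a mean of -0.73 (adjusted p = 0.00762 from limma). NDPK1, a nucleoside diphosphate kinase, had -0.90, -0.52 and -0.63, a mean of -0.68 (adjusted p = 0.0114 from limma). These 3 genes had a negative ratio in every replicate, of 1.61-fold to 1.71-fold on average.
UCP, a mitochondrial uncoupling protein, rose on both clones, with means of -0.64 and -0.58 and replicates between -0.52 and -0.69. Neither UCP clone passed without replicate 2 (-0.62 and -0.61). PHA2, a plasma membrane proton pump, has 4 clones that did not move together, with means of -0.69, -0.59, -0.26 and 0.38. The first pair passed as higher in SD, also with the dye term subtracted (-0.42 and -0.44), though not without replicate 2 (-0.62 and -0.48). The last passed as lower in SD, though not without replicate 1 (0.31), replicate 2 (0.46) or replicate 3 (0.38), nor with the dye term subtracted (0.17). AOX, the alternative oxidase of mitochondria, had a mean of 0.02 and did not pass.

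PKIN1, a kinase of the SNF1-related family that responds to low energy, rose in SD, with ratios of -0.28, -0.36 and -1.02 and a mean of -0.55 (SE 0.17, n = 3, adjusted p = 0.056 from limma). Replicate 3 was far larger in size than the others. PKIN1 did not pass without replicate 3 (-0.32) or without replicate 2 (-0.65).

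Of 10 clones in the photosystem and redox lists 1 passed, where 34.3% of all clones did. The clones come from 1 photosystem gene and 3 redox genes. The paper, with 1 and 15 days pooled, reports many photosynthesis genes and several genes of reactive oxygen metabolism as lower in SD. Of the 8729 tested clones, 7917 match no gene in the annotation used here, so these short lists do not bear on that report. PSBR, a subunit of photosystem II, has 4 tested clones, which give the only leaf marker with a gene name among the tested clones, and log ratios hold no level by which to check the tissue. One PSBR clone rose in SD with a mean of -0.88 and ratios of -0.47, -1.18 and -0.99, while the other 3 had means of -0.16, -0.12 and 0.07 and did not pass. The clone that passed had -0.48 after the dye term was subtracted, and it did not pass without replicate 2 (-0.73). On the other 3 PSBR clones replicate 1 was positive, at 0.32 to 0.59, and replicates 2 and 3 were negative, at -0.45 to -0.18. SHMT, serine hydroxymethyltransferase of photorespiration, had a mean of -0.01. Of the redox clones 0 of 6 passed limma's test, with 1, that of DHAR, at an unadjusted p of 0.05 or less (0.0368). DHAR, a dehydroascorbate reductase, had ratios of -0.05, 0.63 and 1.36, a mean of 0.65 (adjusted p = 0.105 from limma), and passed with the dye term subtracted (0.75), with arrays scaled to one spread and without replicate 1 (0.99). The DHAR2 clones had means of 0.06 and 0.14, and the catalase CAT1 gave 0.06 to 0.15 over its 3 clones. GRX2, a glutaredoxin by its symbol, is outside the list and was chosen with its values known. It fell in SD with ratios of 0.41, 0.73 and 0.73, a mean of 0.62 (SE 0.12, n = 3, adjusted p = 0.0145 from limma), which was 0.35 with the dye term subtracted and did not pass without replicate 2 (0.57).

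In the defence list, 2 of 4 clones passed as higher in SD (16.9% of all clones), 1 passed as lower in SD (17.4% of all clones) and 1 did not pass. Both clones of STWRKY8, a WRKY transcription factor, rose in SD, with ratios of -0.29, -0.68 and -1.45 (mean -0.81) and of -0.19, -0.23 and -0.76 (mean -0.40). Replicate 3 was the largest in size on both. The first did not pass without replicate 2 (-0.87), and the second did not without replicate 1 (-0.50), replicate 2 (-0.48) or replicate 3 (-0.21). PR1B, a pathogenesis-related protein, went the other way on the clone that passed, with ratios of 0.23, 0.53 and 1.33 and a mean of 0.70, which did not pass without replicate 2 (0.78) or replicate 3 (0.38). The second PR1B clone had -0.21, -0.22 and 1.23, so its mean of 0.27 rested on replicate 3, without which it was -0.21. PPO, polyphenol oxidase, resembled it in spread, with 0.03, 0.83 and 1.80 on the clone that passed (mean 0.89), which did not pass without replicate 2 (0.91) or replicate 3 (0.43). With the dye term subtracted neither the PR1B clone (0.43) nor the PPO clone (0.40) passed. The paper reports PR1b as unaffected by photoperiod, by RT-PCR and on its arrays. There it pooled 1 and 15 days of SD and required a 2-fold change.

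Of the genes of amino acid metabolism, 4 of 17 clones passed as higher in SD, 1 passed as lower in SD and 12 did not pass, with a median of -0.12, and 34.3% of all clones passed in either direction, a share near that of the list. METK1, S-adenosylmethionine synthetase, has 9 clones, of which 2 passed as higher in SD (-0.44 and -0.37), 1 passed as lower in SD (0.67) and 6 did not pass. Neither of the METK1 clones that were higher in SD passed without replicate 1 (-0.39 and -0.34), replicate 2 (-0.63 and -0.52) or replicate 3 (-0.30 and -0.26), and the one that was lower in SD did not without replicate 2 (0.56). MS, methionine synthase, the enzyme that makes methionine for this step, has 5 clones with means from -0.52 to -0.07, of which 2 passed as higher in SD (-0.52 and -0.48). Both of these did not pass without replicate 1 (-0.37 and -0.26) or without replicate 2 (-0.55 and -0.52), and on all 5 replicate 1 was the most negative. After subtraction of the dye term none of these 4 clones of METK1 (-0.22 and -0.10) and MS (-0.14 and -0.32) passed as higher in SD. BCAT1 and BCAT2, branched-chain aminotransferases (-0.04 and 0.03), and SHKA, the entry enzyme of aromatic amino acid synthesis (-0.08), did not pass.

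Among hormone genes, IAA3, an Aux/IAA repressor of auxin responses, rose in SD with ratios of -0.62, -0.61 and -0.60, the closest replicates of any named clone. The mean was -0.61 (SE 0.11, n = 3, adjusted p = 0.0104 from limma), and it did not pass without replicate 2 (-0.61). IAA2, of the same family, had 0.27, 0.24 and 0.29 and did not pass (adjusted p = 0.123 from limma). It passed by the methods' t-test with q-value and with the spread shared with 15 days, and its ratio was -0.14 after the dye term was subtracted. ERS, an ethylene receptor, had a mean of -0.13 and did not pass. Hence 1 of 3 clones of the list passed as higher in SD (16.9% of all clones), 0 as lower in SD, and 2 did not pass.

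Of the photoperiod genes found by symbol, 0 of 3 clones passed limma's test, and 0 had an unadjusted p of 0.05 or less. These clones come from 2 genes only, CO and BEL5. GIGANTEA, which the paper reports as higher in LD than in SD on its arrays and by RT-PCR, has no probe under that symbol and could not be examined. CO, CONSTANS, a regulator of the day length response, had ratios of 0.41, -0.04 and -0.10, a mean of 0.09 (SE 0.14, n = 3), positive in 1 replicate and negative in 2. BEL5 had clone means of -0.26 and -0.0015. The first BEL5 clone was negative in each replicate, at -0.31, -0.27 and -0.20 (adjusted p = 0.132 from limma), and passed by the methods' t-test with q-value, and the second lay between -0.30 and 0.35.

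Of the genes outside these lists, IPMK, an inositol polyphosphate multikinase, fell in SD with ratios of 0.92, 0.79 and 0.87, a mean of 0.86 (SE 0.11, n = 3, adjusted p = 0.00375 from limma), or 1.82-fold. RSI5 fell with 1.49, 0.89 and 0.90, a mean of 1.09 (SE 0.15, n = 3, adjusted p = 0.005 from limma). THF1, of thylakoid formation, fell with 0.37, 0.75 and 0.97, a mean of 0.70, and did not pass without replicate 2 (0.67). PEST2 rose with -0.54, -0.92 and -0.62, a mean of -0.69, and did not pass without replicate 2 (-0.58). The gene 16R had a clone that rose (-0.95), one that fell (0.75, not passed without replicate 2, 0.87) and one that did not pass (0.19), so its clones disagree. The choice of these genes was made with their values known.

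The next comparison asked how far the response to 1 SD resembled that after 15 SD, in plants with 41 days of LD before 15 SD. Both days had 3 replicates and, by the names of the extracts in the labels, RNA extracts of their own, from LD plants too. All these LD plants were of one age, and whether each extract came from separate plants is not given, so LD plants common to both days and a like response cannot be told apart in what the days share. Further, 1 array of 15 days that repeated replicate 1 with exchanged dyes was averaged with it. Of the 445 clones called after 1 day, 433 were measured at 15 days, and 431 of them had the same sign there (99.5%, against 84.3% of all 8215 clones measured on both days). Called at 15 days in the same direction were 338 (78.1%), where 5.59% of all clones were called at 15 days. The clones higher in SD after 1 day had a median ratio of -1.37 at 1 day and -1.30 at 15 days, and those lower in SD had 1.32 at 1 day and 1.36 at 15 days.
STUGE51 had similar means on both days, at -2.001 and -1.93 after 1 day and -1.94 and -1.75 after 15 days. Likewise F3H had 1.33 and 1.54, TK (the larger clone) 0.93 and 0.85, AMYA1 0.83 and 0.78, and IAA3 -0.61 and -0.66, after 1 and 15 days. None of these differences between days passed, with adjusted p from limma of 1.00 for each. This does not show that the ratios were equal: for F3H the difference was -0.21 with an SE of 0.41.

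A difference between the days passed for 13 of 8215 clones (0.158%), while 319 had an unadjusted p of 0.05 or less. The ratio after 1 day was below that after 15 days for 9 of the 13 and above it for 4. Of the 13, 7 were called after 1 day, as were 433 of all 8215 clones. These counts leave out the pairing of same-numbered arrays of the days. With the replicate number as a block, which takes it up, 13 clones passed as well, 8 of them in both fits. An unadjusted p of 0.05 or less was then found for 559 clones. No more than 6 passed without a replicate, and 5 without the dye-swap array.
IPMK was the only named gene among them. Its ratios were 0.92, 0.79 and 0.87 after 1 day and 1.93, 1.87 and 1.96 after 15 days. The difference, 1 day minus 15 days, was -1.06 (SE 0.14, adjusted p = 0.0477 from limma, 0.0862 with the replicate block). It did not pass without replicate 1 (-1.08), replicate 2 (-1.05) or replicate 3 (-1.05) of both days, nor without the dye-swap array (-0.99).
The ratio had the opposite sign on the other day for 4 of the 13 clones, none with a gene name. The clone with spot 159366 had ratios of 1.65, 0.88 and 1.58 after 1 day and -0.75, -1.38 and -0.84 after 15 days. The clone with spot 133976 had -0.20, 0.83 and 0.49 after 1 day and -1.53, -1.64 and -1.64 after 15 days. The reverse held for the clone with spot 157129, at -1.29, -0.62 and -0.81 after 1 day and 0.34, 0.23 and 0.57 after 15 days.

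**Figure D3:**
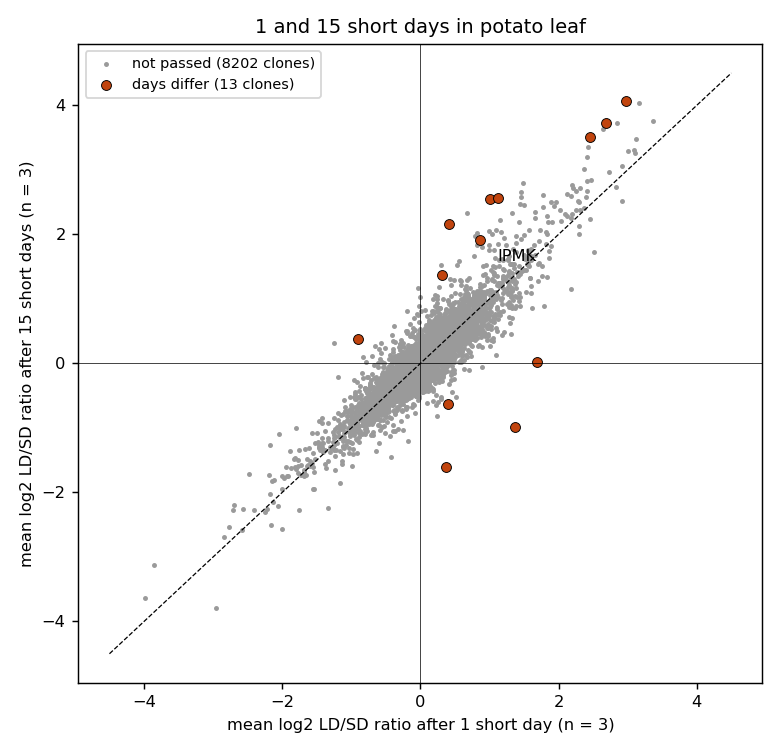
Mean log2 LD/SD ratio after 1 short day (horizontal axis) against that after 15 short days (vertical axis) for 8215 clones measured on both days, with the line of equality dashed. The 13 clones whose ratios differed between the days are filled, and 4 of them lie in a quadrant of opposite signs.

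**Figure D4:**
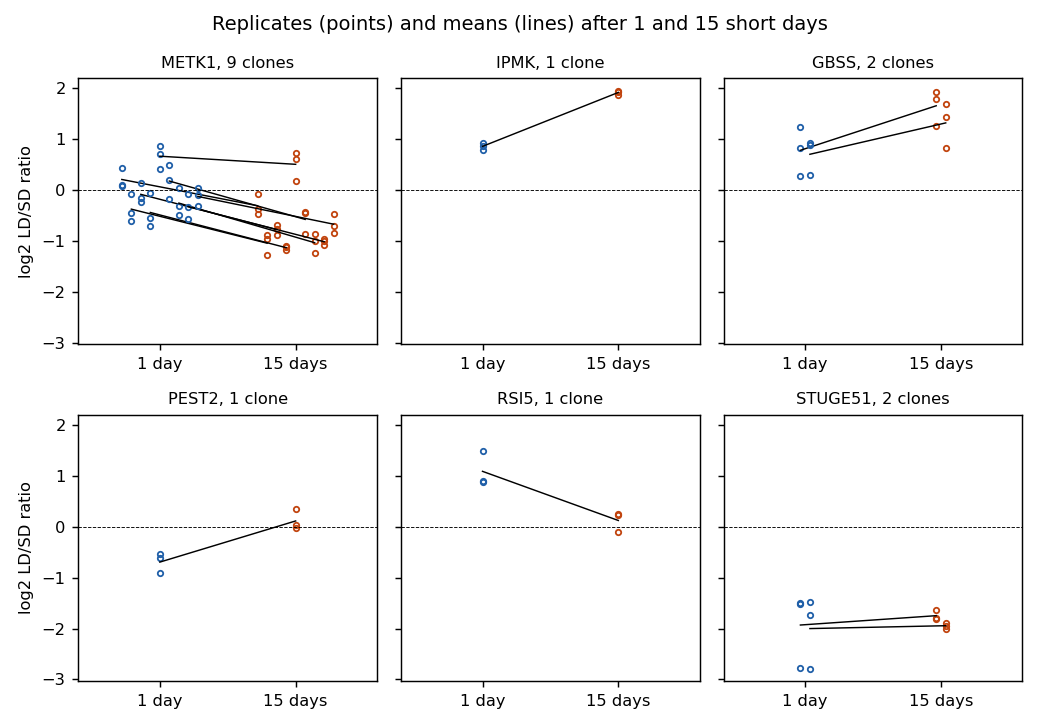
Log2 LD/SD ratios of the replicates (points) of each clone after 1 and 15 short days, with a line between the clone's means, for METK1, IPMK, GBSS, PEST2, RSI5 and STUGE51. METK1 lies near 0 on most clones after 1 day and below 0 on 8 of 9 after 15 days, and STUGE51 has nearly the same level on both days.

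Some named genes differed between the days at the unadjusted p and not after adjustment, among them METK1. On its 9 clones, the mean ratio after 1 day minus that after 15 days was 0.16 to 0.78, and 8 of the 9 had an unadjusted p of 0.0164 or less, with adjusted p from limma of 0.366 to 1.00. Means of METK1 ran from -0.44 to 0.67 after 1 day and from -1.13 to 0.51 after 15 days. Clones of 1 gene share their target and arrays, so they are no replicates of each other. GBSS had means of 0.78 and 0.70 after 1 day and 1.66 and 1.32 after 15 days, with adjusted p from limma of 0.943 and 1.00. With the replicate block no clone of METK1 or GBSS passed either.
RSI5, at 1.09 after 1 day, was at 0.12 after 15 days, with replicates of 0.23, -0.11 and 0.26 there (difference 0.97, SE 0.21, adjusted p = 0.292 from limma). PEST2, at -0.69 after 1 day, was at 0.12 after 15 days (difference -0.81, SE 0.17, adjusted p = 0.292 from limma). Neither difference passed, nor did either with the replicate block.

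Potato after 1 SD was also set against the same transfer of tobacco (N. tabacum), hybridized to the same potato probes, in the isogenic lines MM, which flowers in SD, and Hicks, which flowers regardless of day length. Fewer clones gave values with tobacco RNA on all 3 arrays, 4737 with MM and 4496 with Hicks. Replicate 2 of MM stood apart, with r of -0.09 and -0.03 with the other MM arrays, which had 0.688 with each other. In Hicks the arrays correlated at 0.562 to 0.624.
Of the potato calls, 238 were measured in Hicks, and 220 of these had the same sign there (92.4%, against 70.8% of all clones), with 51 called in the same direction (21.4%, where 2.91% of all clones were called in Hicks). The median ratio of those higher in SD was -1.30 in potato and -0.54 in Hicks, and of those lower in SD 1.27 in potato and 0.57 in Hicks. Since these clones were chosen by their size in potato, a smaller size in another line is no finding by itself. In MM, 239 were measured and 210 had the same sign (87.9%, against 64.6% of all clones), with medians of -1.26 in potato and -0.56 in MM for those higher in SD and of 1.29 in potato and 0.60 in MM for those lower in SD. Called in MM in the same direction was 1 of the 239 (0.418%), where 0.106% of all clones were called in MM.
The difference between potato and Hicks was called for 130 of 4496 clones (2.89%), and the difference between potato and MM for 13 of 4737 (0.274%). Without replicate 2 of both lines the count for Hicks was 24. For MM it was 237 without replicate 2 and 0 without replicate 1 or replicate 3 (278 and 229 at the unadjusted p). Of the 130, 80 were called in potato after 1 day, as were 238 of all 4496 clones. A limit on the size of the difference favours clones with a large ratio in potato, so this count follows in part from the rule.

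**Figure D5:**
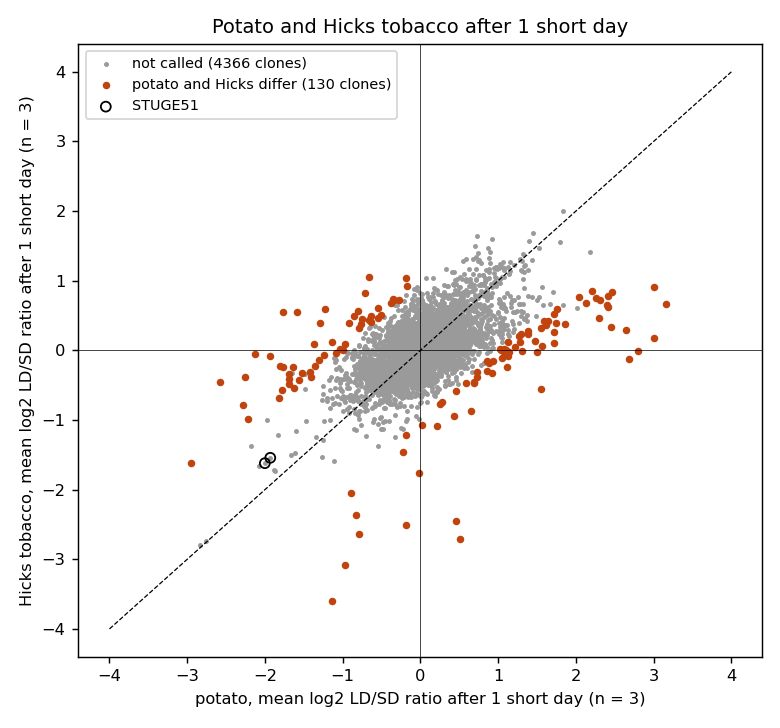
Mean log2 LD/SD ratio after 1 short day in potato (horizontal axis) against that in Hicks tobacco (vertical axis) for 4496 clones, with the line of equality dashed. The 130 clones that differed by limma and by at least 2-fold are coloured, and the 2 clones of STUGE51 (circles) lie near the line.

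Among the clones with a gene name, 0 were called in either difference by limma, while 24 of 101 measured in Hicks and 12 of 99 measured in MM had an unadjusted p of 0.05 or less. Over all clones, 901 of 4496 in Hicks and 507 of 4737 in MM had such a p, shares near those of the named clones. STUGE51 had means of -2.001 and -1.93 in potato, -1.62 and -1.54 in Hicks and -2.08 and -2.04 in MM. The differences from Hicks were -0.38 (SE 0.37) and -0.39 (SE 0.33), with adjusted p from limma of 0.63 and 0.579. On the spot of F3H measured in both, the mean was 1.35 in potato and 1.23 in Hicks (difference 0.12, SE 0.32, adjusted p = 0.886 from limma).
Without the size limit, the difference from Hicks passed for 4 named clones, 1 each of 16R, PSBR, TK and TS. How many of all clones passed in this way was not counted, so these clones are a description only. The 16R clone that rose in potato had -0.95 in potato and -0.03 in Hicks, a difference of -0.92 (SE 0.21, adjusted p = 0.0408 from limma). One TK clone had 0.60 in potato and -0.10 in Hicks, a difference of 0.69 (SE 0.20, adjusted p = 0.0832), and the PSBR clone that rose in potato had -0.88 in potato and -0.04 in Hicks, a difference of -0.84 (SE 0.21, adjusted p = 0.0535). TS, threonine synthase, had -0.35 in potato and 0.21 in Hicks on the spot measured in both (adjusted p = 0.0943 for the difference). The species differ both in their response and in how well their RNA matches potato probes, and these cannot be told apart here.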

How the data were processed

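RNA of SD and LD potato plants was hybridized with 2 dyes to potato cDNA arrays, on 3 arrays. Spot intensities were normalized with LOWESS by the service that processed the arrays for the authors, who deposited log2 ratios. The labels name limma among the processing tools, with no version. No scanner intensities, slides or scan times were used, and nothing else about image processing is given in the sources used here. The 2 spots of a clone were paired by their spacing on the array: of 32448 spots, 15360 pairs were formed, which hold all 905 pairs that the probe annotation shows, while 1728 further spots gave no value. Of 1810 annotated probes, 1630 have 1 gene symbol and 180 several, and the other probes are not named here. The spots of a clone with a value on all 3 arrays were averaged. GIGANTEA has no probe under that symbol in the annotation used, and further named genes had no clone with a value on all 3 arrays, GA2OX1 and SUT2 among them.

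Mean ratios were tested against 0, and groups by the difference of 2 means over the spots measured in both groups, by limma's lmFit and eBayes (version 3.58.1, in R 4.3.3; tables with Python 3.11.15 and pandas 2.3.3, plots with matplotlib 3.10.9). The methods' limits were kept, namely a p of 0.05, a false discovery rate of 0.1 and a log2 ratio of 1 in size, but with limma in place of the t-test. Differences between days had no limit on size. The members, gene lists and comparisons were chosen with earlier results of these data known. The rule for named genes took, among called clones with a symbol, the 12 with the largest ratio in each direction, the largest 3 called clones in each direction, up to 6 clones of each functional list and, in the differences, the 6 called clones with a symbol and the smallest p. Genes said to be outside the lists, and the clones given for differences between days by spot number, were chosen after their values were seen. Lists by words in gene descriptions could be filled only by symbol, since the tables used here pair no descriptions with the clones.

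Same-numbered arrays of 1 and 15 days deviated together from their day's mean, with r of 0.408, 0.137 and 0.461, each over 0.1, which pairs them. The main fit of the difference between days did not use this pairing, which entered only as the replicate block. Potato and Hicks arrays had -0.131, -0.227 and -0.044, none over 0.1. Potato and MM arrays had 0.120, 0.430 and 0.049, over 0.1 for replicates 1 and 2 and below it for replicate 3. Of these, only replicate 2 matched its own number best. The main fit did not pair potato and MM arrays, and the replicate block changed their count from 13 to 105. Whether they share more than a number was not tested. On simulated replicates of 8729 clones, 200 changed by 1.5 log2 units, 178 were recovered and 1 unchanged clone was called in the test against 0, and 173 and 3 in the difference of 2 groups. The simulated noise was normal, centred at 0 and independent between arrays, with the spread of each real clone. It held no dye effect, so the simulation cannot show calls that a dye offset common to the arrays would give. The alternatives tried were the t-test of the methods (q-value, or Benjamini-Hochberg), other limits, single spots, both spots required, missing spots, centring, scaling, robust and shared variance, the replicate block, the dye-swap array left out, subtraction of the dye term (from the difference between the arrays of the 15-day dye-swap pair) and each replicate left out. A fit on the clones with a dye term, without subtraction, was added after seeing the data. The dye term came from 1 pair of arrays and was subtracted alike from all 3 arrays, so its own error did not enter the tests.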

Additional observations from a re-analysis of the deposited data

Results flagged for a closer look

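The ratio after 1 SD differed from that after 15 SD for 13 clones by limma's test of the difference. IPMK was the named gene among them, with a difference (1 day minus 15 days) of -1.06. The ratio after 1 SD differed between potato and MM for 13 clones and between potato and Hicks for 130 clones, by the test of the difference and a size of at least 2-fold. The 13 for MM lay at 0 to 237 when a replicate was left out, and 1 of them has a locus number while the rest have no name.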

How the results depend on the processing

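Of 445 calls after 1 SD, the counts were 366 by the methods' t-test and q-value, 33 with its Benjamini-Hochberg adjustment (366 at the unadjusted p and 2-fold), 2991 with no limit on size, 1806 with a size limit of 0.5 and 863 of 16224 single spots, and lay between 401 and 506 without a replicate. With the dye term subtracted, 171 clones higher in SD and 238 lower in SD were called, against 160 and 267 on the same 7874 clones without subtraction. The 13 clones that differed between days became 5 with the dye-swap array left out, 0 by a t-test with Benjamini-Hochberg adjustment (262 at the unadjusted p), and 0 to 6 without a replicate (196 to 446 at the unadjusted p), while the replicate block gave 13. For potato and MM the 13 became 105 with the replicate block, 82 with arrays scaled to one spread and 0 to 237 without a replicate (229 to 1125 at the unadjusted p). For potato and Hicks the 130 became 24 to 148 without a replicate and 124 with the block.

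Of the 52 named clones that passed, 50 kept their direction under every alternative run, the exceptions being ADH1 (-0.30) and EI1 (0.0015) after the dye term was subtracted. At an adjusted p limit of 0.05, 33 passed, with the t-test and q-value 24 and with its Benjamini-Hochberg adjustment 1, and after subtraction 36 of 50. Signs turned for these clones that had not passed: IAA2 (-0.14), BEL5 (0.093) and SHMT (0.044) with the dye term subtracted, BEL5 (0.0033) with arrays scaled, and SHMT (0.096) on the clones with a dye term, not subtracted. Without a replicate, BEL5 ranged from -0.18 to 0.15, CO from -0.074 to 0.18, PR1B from -0.21 to 0.51, R1 from -0.047 to 0.33, SHKA from -0.29 to 0.028, SHMT from -0.046 to 0.027, STP-1 from -0.087 to 0.19 and the day difference of 1 METK1 clone from -0.026 to 0.34. The cause of these changes was not tested.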
